A study of Homo sapiens with 4 samples.

Results

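The complement system was examined in human hematopoietic differentiation through 9 of its genes, taken from the expression table by their symbols. They were C1R and C1S, the proteases of the first component, SERPING1, their inhibitor, C3, CFB and CFI of the central and alternative steps, and the membrane regulators CD46, CD55 and CD59. Each symbol had 1 row, so the members were 9 of 58229 gene rows, and the rule itself uses no measured value, although the genes were proposed with earlier results of these data known.

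RNA was sequenced from CD31+ cells of the human embryonic stem cell line H1, collected at day 8 of a stepwise hematopoietic differentiation. All cells received activin A and BMP4 and then VEGF and bFGF. The Control group was H1 without HAND1 overexpression and the HAND1_OE group was H1 with overexpression of HAND1, a basic helix-loop-helix transcription factor, with 2 libraries each. The labels do not say whether the 2 libraries of a group came from separate cultures, so the p-values below measure only the spread between these libraries, which may be technical. The study's scheme shows doxycycline as the inducing agent. Whether Control cells carried a vector or received doxycycline, and how many clones were used, is not given in the sources used here.

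Values are FPKM, fragments scaled by transcript length and library size, so levels of different genes can be compared per length. A log2 fold change below is the difference of mean log2(FPKM + 1) between HAND1_OE and Control, tested with limma across 14622 genes that reached 1 FPKM in at least 2 libraries. Such a difference understates the change of a gene at a low level. A gene is called when its Benjamini-Hochberg adjusted p is under 0.05. The summed FPKM of a library lay between 536284 and 606609, between 13989 and 14542 genes reached 1 FPKM, and mitochondrially encoded genes took 7.46% to 8.93% of the sum. HAND1 itself (chromosome 5, 154474972 to 154478264) stood at 12.1 and 14.3 FPKM in Control compared with 520 and 517 FPKM in HAND1_OE (log2 fold change 5.20, SE 0.152, limma adjusted p = 0.00145), in the direction of the labels.

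Complement is a chain of plasma proteases that marks surfaces with fragments of C3 and can end in a pore, the membrane attack complex. The classical pathway starts when C1q binds a surface and C1r activates C1s, which then cuts C4 and C2. The lectin pathway starts from collectins and ficolins with the proteases MASP1 and MASP2, and the alternative pathway amplifies C3b with factor B, factor D and properdin. Most plasma complement is made by the liver, while endothelial and myeloid cells make part of it locally. Host cells limit the chain with soluble inhibitors and with the membrane proteins CD46, CD55 and CD59, which vascular and blood cells carry.

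Of the 9 members, 6 passed the filter on low values and were tested, 2 were called lower in HAND1_OE and 0 were called higher. The called members were SERPING1 and CD55. Over all genes tested, 4.16% were called in either direction, 2.11% lower and 2.04% higher. The median log2 fold change of the 6 tested members was -0.61, beside -0.078 over all genes tested. The groups did not overlap for 5 of the 9 members, among them 4 of the 6 tested, and the same held for 46.3% of all genes tested. C1R, 1 of these 4, reached 1 FPKM only in the Control libraries and so passed the filter through the group with the higher values. An exact two-sided permutation test of 2 against 2 libraries cannot give a p below 0.333, so single-gene calls rest on the spread that limma shares among genes.

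**Figure D1:**
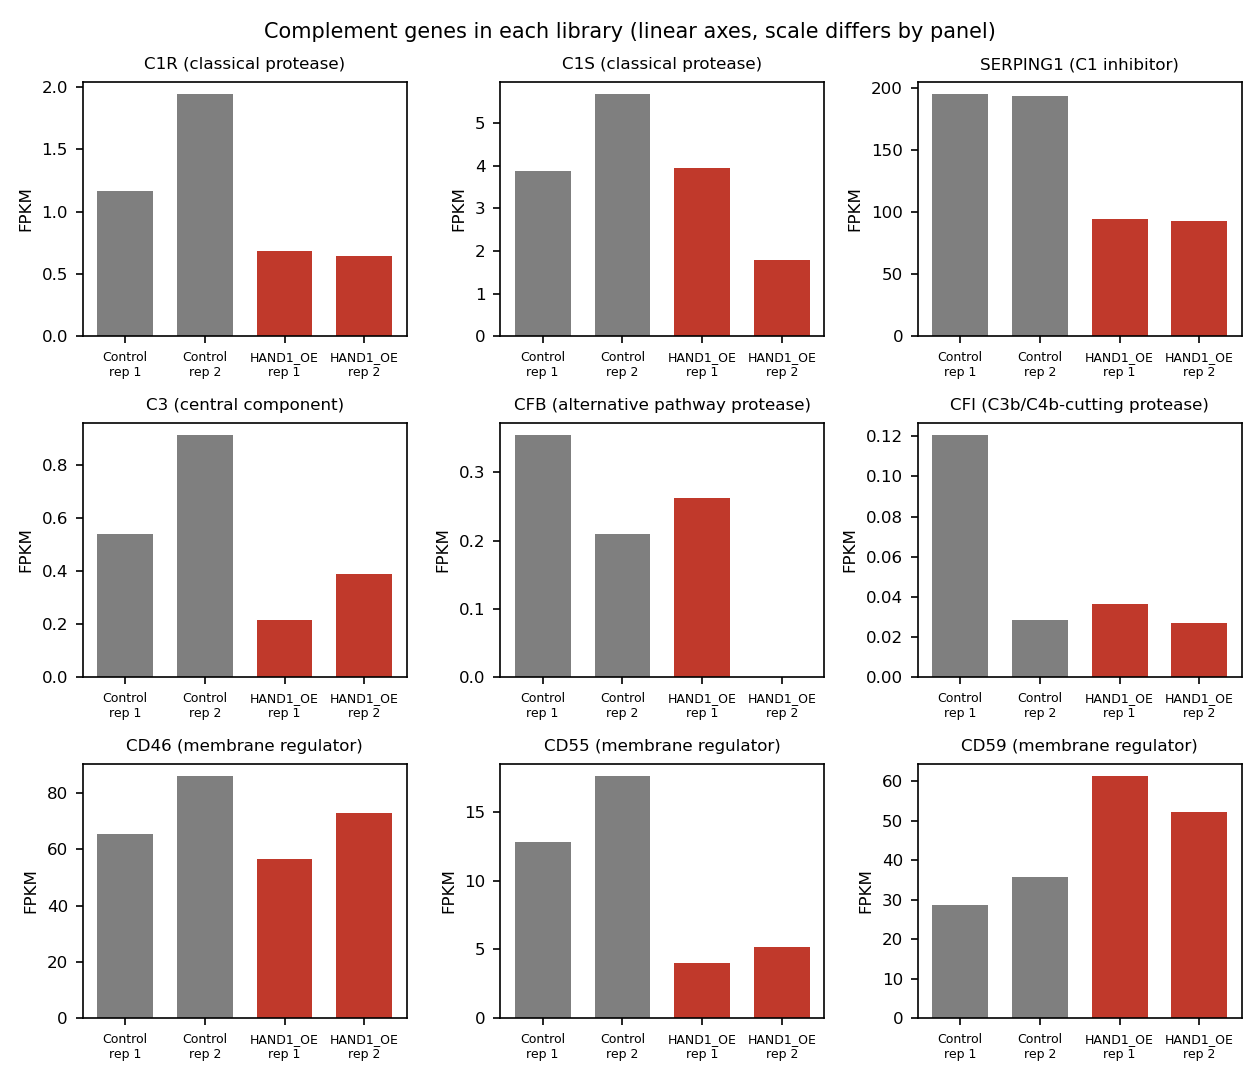
FPKM of the 9 members, 1 panel per gene and 1 bar per library (grey Control, red HAND1_OE, linear axes that start at 0 and differ between panels). SERPING1 stood at 195 and 193 FPKM in Control and 94.8 and 93.0 FPKM in HAND1_OE, while CD59 was higher in both HAND1_OE libraries and CFB was listed at 0 in HAND1_OE replicate 2.

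The classical proteases were low in CD31+ cells. C1R (chromosome 12, 7080209 to 7092607), which activates C1s, was at 1.16 and 1.95 FPKM in Control against 0.681 and 0.645 FPKM in HAND1_OE. Both HAND1_OE values lay under both Control values, by a log2 fold change of -0.60 (SE 0.243, 95% interval -1.21 to 0.0021), and the gene was not called (limma adjusted p = 0.289). C1S (chromosome 12, 6988259 to 7071032), which cuts C4 and C2, was at 3.87 and 5.69 FPKM in Control compared with 3.95 and 1.79 FPKM in HAND1_OE. Here the groups overlapped, since HAND1_OE replicate 1 was above Control replicate 1 (log2 fold change -0.62, SE 0.330, 95% interval -1.44 to 0.203, limma adjusted p = 0.432). The genes lie 9.18 kb apart on opposite strands. C1S was the more abundant in each library, at 3.33 and 2.92 times the FPKM of C1R in Control and 5.80 and 2.78 times in HAND1_OE. C1R overlaps C1RL on its own strand, at 10.7 to 14.96 FPKM, where no strand setting would separate reads from the shared stretch. C1S overlaps LPCAT3 on the other strand, at 12.0 to 17.1 FPKM, and EMG1 on its own strand, with no value given here. The strand setting of the libraries is not given in the sources used here, so reads shared with LPCAT3 cannot be told apart either.

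SERPING1 fell. This gene (ENSG00000149131.15, chromosome 11, 57597387 to 57614853, plus strand) encodes C1 inhibitor, a serpin that traps C1r, C1s and the MASP proteases and also acts on the contact system of coagulation. It was the most abundant of the 9 members in each library, at 195 and 193 FPKM in Control against 94.8 and 93.0 FPKM in HAND1_OE. The replicates of each group lay close together and the groups were far apart, with means of 194 ± 1.53 and 93.9 ± 1.24 FPKM (SD, n = 2 each), a ratio of 0.483. The log2 fold change was -1.04 (SE 0.139, 95% interval -1.39 to -0.70, limma adjusted p = 0.0220). With any 1 of the 4 libraries left out the fold change stayed between -1.05 and -1.03 but the call was lost: the adjusted p was 0.0892 without Control replicate 1, 0.0910 without Control replicate 2, 0.0644 without HAND1_OE replicate 1 and 0.0658 without HAND1_OE replicate 2.

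Set against C1R and C1S within a library, SERPING1 showed no separation of the groups. Its FPKM was 38.8 and 25.3 times the sum of C1R and C1S in Control and 20.5 and 38.2 times in HAND1_OE (exact two-sided permutation p = 0.667). MASP1, which SERPING1 also inhibits, was not in this sum and is given below with the lectin pathway. The part of SERPING1 in the summed FPKM of the 9 members was 63.4% and 56.6% in Control and 42.7% and 41.2% in HAND1_OE. That sum was 308 and 342 FPKM in Control and 222 and 226 FPKM in HAND1_OE.

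C3, CFB and CFI did not reach the filter and were not tested. C3 (chromosome 19, 6677704 to 6730562), the protein on which all pathways meet, was at 0.541 and 0.914 FPKM in Control compared with 0.217 and 0.387 FPKM in HAND1_OE. Both HAND1_OE values were under both Control values, at levels below 1 FPKM, and C3 overlaps GPR108, which was at 38.4 to 42.2 FPKM on the same strand. CFB (chromosome 6, 31945650 to 31952084), the protease of the alternative C3 convertase, was at 0.355 and 0.210 FPKM in Control, at 0.263 FPKM in HAND1_OE replicate 1 and listed at 0 in HAND1_OE replicate 2. CFI (chromosome 4, 109740694 to 109802179), the protease that cuts C3b and C4b with the help of cofactors such as CD46, was at 0.121 and 0.0283 FPKM in Control against 0.0366 and 0.0269 FPKM in HAND1_OE. The groups overlapped for CFB and CFI. A listed 0 is no proof of silence. The ubiquitous SLC25A6, a gene with copies on X and Y, had 0 in all 4 libraries. Whether this applies to CFB, on chromosome 6, was not tested.

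The membrane regulators moved apart from each other. CD55 fell, CD59 was higher in both HAND1_OE libraries without being called, and CD46 overlapped between the groups. CD55 (ENSG00000196352.14, chromosome 1, 207321508 to 207386804, plus strand), or decay-accelerating factor, is a GPI-anchored protein that takes C3 convertases apart. It was at 12.8 and 17.6 FPKM in Control compared with 4.04 and 5.17 FPKM in HAND1_OE. Means were 15.2 ± 3.38 and 4.61 ± 0.798 FPKM (SD, n = 2 each), a ratio of 0.303, with a log2 fold change of -1.52 (SE 0.217, 95% interval -2.06 to -0.98, limma adjusted p = 0.0258). Without Control replicate 2, the library with the highest CD55, the fold change was -1.31 and the call was lost (adjusted p = 0.0861), and it held without each of the other libraries.

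CD59 (chromosome 11, 33698261 to 33736445, minus strand), a GPI-anchored protein that blocks the assembly of the membrane attack complex, was at 28.6 and 35.8 FPKM in Control against 61.3 and 52.1 FPKM in HAND1_OE. Both HAND1_OE values exceeded both Control values, with means of 32.2 ± 5.12 and 56.7 ± 6.56 FPKM and a ratio of 1.76. The log2 fold change was 0.80 (SE 0.179, 95% interval 0.36 to 1.25), and the gene did not pass (limma adjusted p = 0.0812). CD46 (chromosome 1, 207752057 to 207795513, plus strand), a transmembrane cofactor with which factor I cuts C3b and C4b, was at 65.5 and 86.1 FPKM in Control compared with 56.5 and 72.8 FPKM in HAND1_OE. Its groups overlapped and its log2 fold change was -0.22 (SE 0.208, 95% interval -0.74 to 0.29, limma adjusted p = 0.688).

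The make-up of the 3 membrane regulators differed between groups while their sum did not separate them. The summed FPKM of CD46, CD55 and CD59 was 107 and 140 in Control and 122 and 130 in HAND1_OE. CD55 made up 12.0% and 12.6% of that sum in Control and 3.32% and 3.98% in HAND1_OE. CD59 made up 26.7% and 25.7% in Control and 50.3% and 40.0% in HAND1_OE. Thus CD59 was at 2.23 and 2.03 times the FPKM of CD55 in Control and at 15.2 and 10.1 times in HAND1_OE, and CD46 at 5.10 and 4.89 times in Control and 13.97 and 14.1 times in HAND1_OE. The groups did not overlap in these shares and ratios, each at the smallest two-sided p that exact permutation of 2 against 2 allows, 0.333. CD55 was lower and CD59 higher in both HAND1_OE libraries, so the ratio of CD59 to CD55 had to separate the groups. The other shares and ratios use the same values and are no separate support. How often such ratios of other genes separate the groups was not counted.

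**Figure D2:**
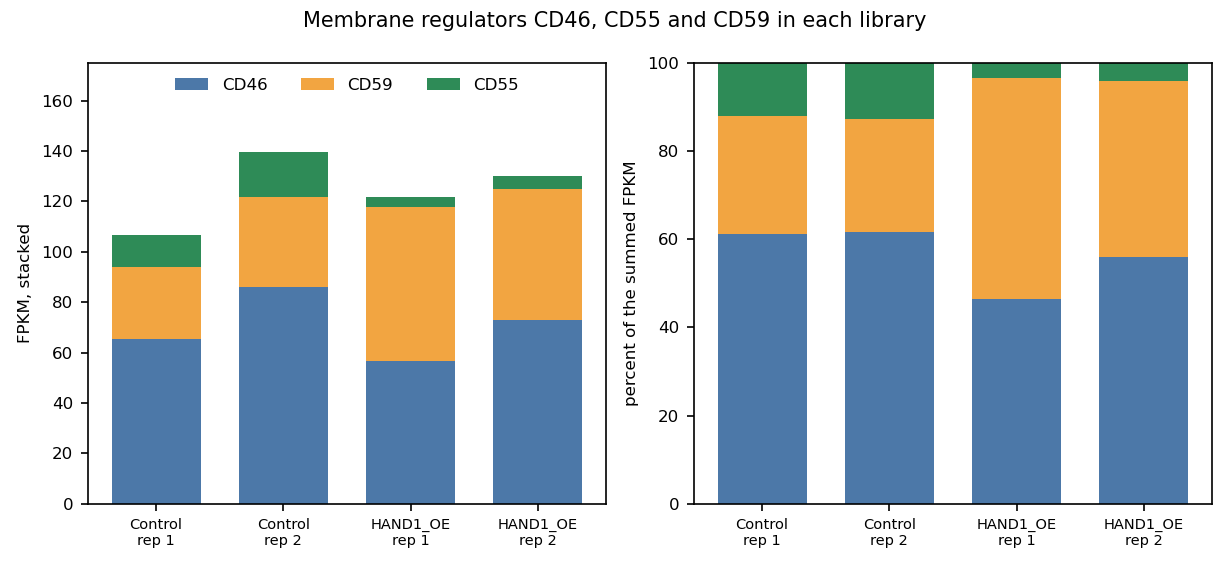
Stacked FPKM of CD46 (blue), CD59 (orange) and CD55 (green) in each library on the left, and the percent of their sum on the right. CD55 took 12.0% and 12.6% of the sum in Control and 3.32% and 3.98% in HAND1_OE, while the sums of 107 to 140 FPKM overlapped.

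Promoter windows are shown for the 3 membrane regulators because these genes share a role and differed in their values. The windows are RefSeq sequence of GRCh38.p14, from 250 bases before a transcript start to 50 bases from it, and 6 of the 9 members matched an entry. For a gene with several windows the one nearest to the start in the expression table was taken. Capitals mark matches on either strand to the E-box CANNTG, the kind of site that basic helix-loop-helix factors bind, and to the GC box GGGCGG, and none of the marked E-boxes and GC boxes overlap. The CD55 window is chr1:207321428-207321727 on the plus strand, the CD46 window chr1:207751804-207752103 on the plus strand and the CD59 window chr11:33736374-33736673 on the minus strand.
CD55: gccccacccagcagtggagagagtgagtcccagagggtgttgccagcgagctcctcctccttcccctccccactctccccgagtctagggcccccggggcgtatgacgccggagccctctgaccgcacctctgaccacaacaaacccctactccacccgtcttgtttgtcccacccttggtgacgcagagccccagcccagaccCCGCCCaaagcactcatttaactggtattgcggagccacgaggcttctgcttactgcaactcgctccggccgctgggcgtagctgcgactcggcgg
CD46: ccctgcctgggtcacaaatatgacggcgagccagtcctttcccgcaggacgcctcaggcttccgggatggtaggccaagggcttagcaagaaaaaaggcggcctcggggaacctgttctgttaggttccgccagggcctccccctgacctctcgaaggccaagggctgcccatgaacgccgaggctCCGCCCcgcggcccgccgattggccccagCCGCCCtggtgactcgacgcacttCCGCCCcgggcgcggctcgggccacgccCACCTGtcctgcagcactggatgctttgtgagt
CD59: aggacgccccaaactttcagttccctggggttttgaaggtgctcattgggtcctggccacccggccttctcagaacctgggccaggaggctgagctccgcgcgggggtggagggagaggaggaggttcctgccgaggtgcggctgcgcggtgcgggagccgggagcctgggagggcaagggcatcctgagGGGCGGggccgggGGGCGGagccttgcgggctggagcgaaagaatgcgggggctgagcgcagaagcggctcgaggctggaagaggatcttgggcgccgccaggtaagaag
The CD55 window held 0 E-boxes and 1 GC box, the CD46 window 1 E-box and 3 GC boxes, and the CD59 window 0 E-boxes and 2 GC boxes. Of 35116 promoter windows of the same length, 68.7% held the E-box letters and 45.0% the GC box. The GATA letters AGATAA (10.3% of windows) and the AP-1 letters TGACTCA (4.95%) were in 0 of the 6 member windows. These matches describe the letters in a 300-base window only.

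CD55 and CD46 belong to the cluster of complement regulators on chromosome 1, and their ends lie 365 kb apart. Other regulators near CD55 and CD46 on that chromosome were at or near 0. C4BPA and CR2 were listed at 0 in all libraries, C4BPB was above 0 in 1 library only (0.108 FPKM in Control replicate 2), and CR1 lay between 0.0115 and 0.0838 FPKM.

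The rest of the complement system was followed in a list of 54 other genes. Of these, 20 were tested and 12 were listed at 0 in all libraries. MASP1 was called higher, CFP and ITGB2 were called lower, and the other tested genes did not pass, so 15.0% of the tested genes were called beside 4.16% of all genes. ITGB2 reached 1 FPKM only in the Control libraries, so it passed the filter through the group with the higher values. The median log2 fold change of the 20 was -0.15, with 9 above 0 and 11 below.

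In the lectin pathway, MASP1 (chromosome 3, 187217285 to 187292022), a protease of this pathway that SERPING1 inhibits, rose from 27.3 and 20.5 FPKM in Control to 110 and 120 FPKM in HAND1_OE. Its log2 fold change was 2.23 (SE 0.184, limma adjusted p = 0.00730), and it stayed called without any 1 library. COLEC11, a collectin that binds MASP proteases, was at 22.1 and 10.7 FPKM in Control compared with 141 and 58.9 FPKM in HAND1_OE. Its groups did not overlap, but the libraries of a group differed widely and it was not called (log2 fold change 2.49, limma adjusted p = 0.0592). It was called without Control replicate 1 (adjusted p = 0.0414), without HAND1_OE replicate 1 (0.0399) and without HAND1_OE replicate 2 (0.00423), but not without Control replicate 2 (0.128). FCN3, a ficolin, had the opposite direction, at 100 and 189 FPKM in Control against 25.8 and 63.6 FPKM in HAND1_OE (log2 fold change -1.74, limma adjusted p = 0.143), and it was called only without HAND1_OE replicate 2 (adjusted p = 0.0113) among the fits that left out 1 library. With Control replicate 1 left out, and with HAND1_OE replicate 1 left out, 5 of the 54 genes were called in place of 3. COLEC11 is named after its values were seen.

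CFP (chromosome X, 47623172 to 47630305), which encodes properdin, the stabilizer of the alternative C3 convertase and a product of myeloid cells, fell from 14.2 and 15.8 FPKM to 2.28 and 1.68 FPKM. The log2 fold change was -2.43 (SE 0.188, limma adjusted p = 0.00700). ITGB2 (chromosome 21, 44885953 to 44931989), the leukocyte integrin chain shared by complement receptors 3 and 4, fell from 2.19 and 3.52 FPKM to 0.424 and 0.281 FPKM (log2 fold change -1.49, SE 0.253, limma adjusted p = 0.0399). It was not called without Control replicate 2 (adjusted p = 0.128) or without HAND1_OE replicate 2 (adjusted p = 0.0617).

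The tested complement genes with the highest mean level outside the 9 members were CALR, FCN3 and C1QBP. CALR, a chaperone that also binds C1q, was at 495 and 416 FPKM in Control compared with 556 and 496 FPKM in HAND1_OE, with a log2 fold change of 0.21 (limma adjusted p = 0.648). C1QBP, a mitochondrial protein that can bind C1q, was at 94.4 and 89.8 FPKM in Control against 72.3 and 66.6 FPKM in HAND1_OE, with a log2 fold change of -0.40 (limma adjusted p = 0.229). The genes of C1q itself, C1QA, C1QB and C1QC, were listed at 0 in all libraries.

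**Figure D3:**
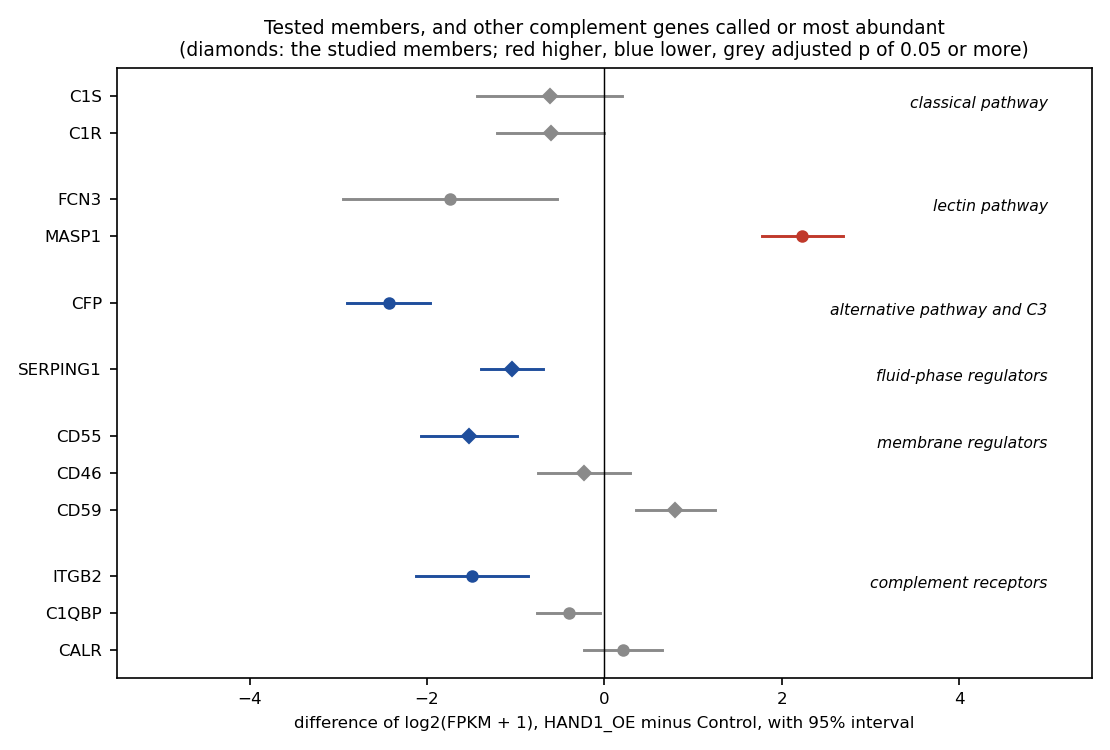
Difference of log2(FPKM + 1) between HAND1_OE and Control for the 6 tested members (diamonds) and for other complement genes that were called or were among the 3 most abundant (circles), by pathway, with 95% intervals (red called higher, blue called lower, grey not called). SERPING1 (-1.04), CD55 (-1.52), CFP (-2.43) and ITGB2 (-1.49) were called lower and MASP1 (2.23) higher.

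CD55 and CD59 share a GPI anchor and had opposite signs. A list of 30 genes that build or remodel this anchor had 28 tested genes, of which 0 were called, with a median log2 fold change of -0.022 that became 0.035 after quantile normalization and 0.086 after median-ratio scaling. Among 29 factors, cytokines and receptors known to act on complement genes, 27 were tested and 1 was called, or 3.70% beside the 4.16% of all genes, a share near the background. This was CEBPB (chromosome 20, 50190734 to 50192689), an acute-phase transcription factor, which fell from 20.5 and 24.2 FPKM to 8.56 and 9.16 FPKM (log2 fold change -1.24, SE 0.161, limma adjusted p = 0.0214). It was not called without Control replicate 1 (adjusted p = 0.0559) or without Control replicate 2 (adjusted p = 0.0950). IRF1 was at 5.98 and 7.31 FPKM in Control compared with 4.10 and 3.13 FPKM in HAND1_OE and was not called (log2 fold change -0.73, limma adjusted p = 0.140). IRF1 is named after its values were seen.

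The sorted cells carried endothelial RNA in all libraries, and the RNA of blood cells differed between the groups. PECAM1, which encodes CD31, was at 95.5 and 141 FPKM in Control against 92.0 and 160 FPKM in HAND1_OE. The 10 endothelial markers summed to 1694 to 2148 FPKM in Control and 1877 to 2148 FPKM in HAND1_OE, and 0 of the 10 were called. Single markers differed, with log2 fold changes from -1.32 (ROBO4) to 1.33 (EMCN), 7 above 0 and 3 below. Of 10 erythroid markers 9 were called lower, and all 10 had a log2 fold change below 0. The 10 together summed to 868 and 1249 FPKM in Control and 67.0 and 54.4 FPKM in HAND1_OE. GYPB (log2 fold change -4.93), HBE1 (-4.19) and ALAS2 (-4.18) had the greatest changes in that list.

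Of 9 pan-hematopoietic markers 8 were tested, all 8 had a log2 fold change below 0 and 6 were called lower. Among those called were RUNX1 (log2 fold change -3.22), SPN (-3.13) and SPI1 (-2.86). The 9 markers summed to 174 and 263 FPKM in Control and 42.4 and 94.8 FPKM in HAND1_OE. The place of SPI1 among the 3 greatest changes depended on the pseudocount, since with 0.1 GFI1 was at -3.44 and SPI1 at -3.27. PTPRC, the defining leukocyte gene CD45, was at 0 or at most 0.0227 FPKM in every library. Of 8 monocyte and macrophage markers 5 were tested, and all 5 had a log2 fold change below 0. Called lower were 3 of them, AIF1 (-3.17), TYROBP (-3.11) and FCER1G (-2.42). The 8 markers summed to 128 and 101 FPKM in Control and 28.5 and 23.3 FPKM in HAND1_OE, with C1QA listed at 0. CD14, not tested, had the opposite direction, at 0.228 and 0.223 FPKM in Control and 0.246 and 0.676 FPKM in HAND1_OE. CSF1R, also not tested, was lower, at 1.71 and 0.853 FPKM in Control and 0.388 and 0.292 FPKM in HAND1_OE.

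Of 8 stromal markers 7 were tested, and 3 were called higher. Log2 fold changes were above 0 for 5 and below 0 for 2. The called genes were PDGFRB (log2 fold change 2.03), POSTN (1.97) and LUM (1.41). PDGFRA (1.20) and COL3A1 (1.16) were higher in both HAND1_OE libraries without being called, and are named after their values were seen. The 8 markers summed to 431 and 349 FPKM in Control and 561 and 501 FPKM in HAND1_OE. LUM was not called without Control replicate 1 (limma adjusted p = 0.0739). The list did not move one way, since COL1A2, at 154 and 141 FPKM in Control and 68.6 and 101 FPKM in HAND1_OE, and COL1A1, at 89.9 and 79.7 FPKM in Control and 70.0 and 74.0 FPKM in HAND1_OE, were lower in both HAND1_OE libraries without being called. Their log2 fold changes were -0.82 and -0.23, and both are named after their values were seen. For the hepatic and endodermal list 8 of 9 genes were tested and 0 were called. Its sum was 313 and 545 FPKM in Control and 345 and 1141 FPKM in HAND1_OE, with ALB at 0.460 to 0.716 FPKM.

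The tested blood cell markers therefore had log2 fold changes below 0 in the comparison in which SERPING1, CD55, CFP and ITGB2 fell. Of the 7 tested stromal markers, 5 had a log2 fold change above 0 and 3 were called higher, in the comparison in which MASP1 rose. The part of either in these results was not tested. In bulk RNA, fewer cells of a type and less RNA per cell cannot be told apart. Set against PECAM1 within each library, CD55 was at 0.134 and 0.125 of its FPKM in Control compared with 0.0440 and 0.0323 in HAND1_OE, and SERPING1 at 2.05 and 1.37 times in Control and 1.03 and 0.581 times in HAND1_OE. CD59 was at 0.299 and 0.254 of PECAM1 in Control and at 0.667 and 0.325 in HAND1_OE. The groups did not overlap in any of these 3 ratios (exact two-sided permutation p = 0.333, the smallest possible).

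**Figure D4:**
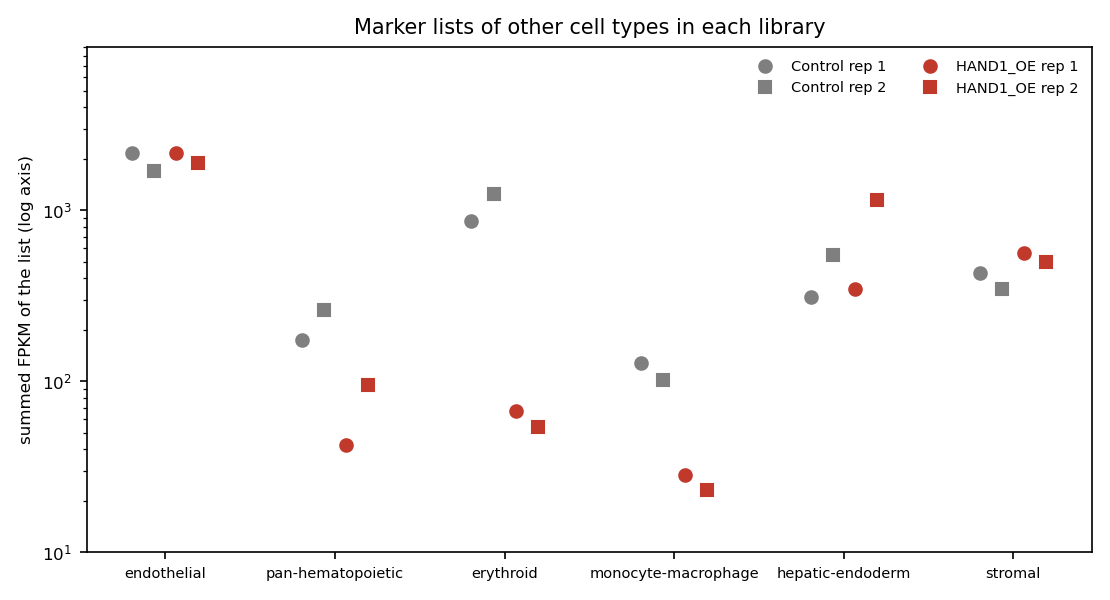
Summed FPKM of 6 marker lists in each library on a log axis (grey Control, red HAND1_OE, circles replicate 1, squares replicate 2). Erythroid sums were 868 and 1249 FPKM in Control and 67.0 and 54.4 FPKM in HAND1_OE, endothelial sums were 1694 to 2148 FPKM over all libraries, and hepatic and endodermal sums were higher in both replicate 2 libraries.

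The calls on the members depended on which libraries and genes entered the fit, while their directions did not. SERPING1, CD55, C1R, C1S and CD46 stayed below 0 and CD59 stayed above 0 under each alternative in which they were tested. CD59 ranged from 0.64 to 0.96 and was called under none of these (limma adjusted p from 0.0605 to 0.320). CD46 ranged from -0.42 to -0.028, C1S from -1.03 to -0.20 and C1R from -1.07 to -0.38. Of these, C1S was nearest to 0 without HAND1_OE replicate 2, its lowest library.

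**Figure D5:**
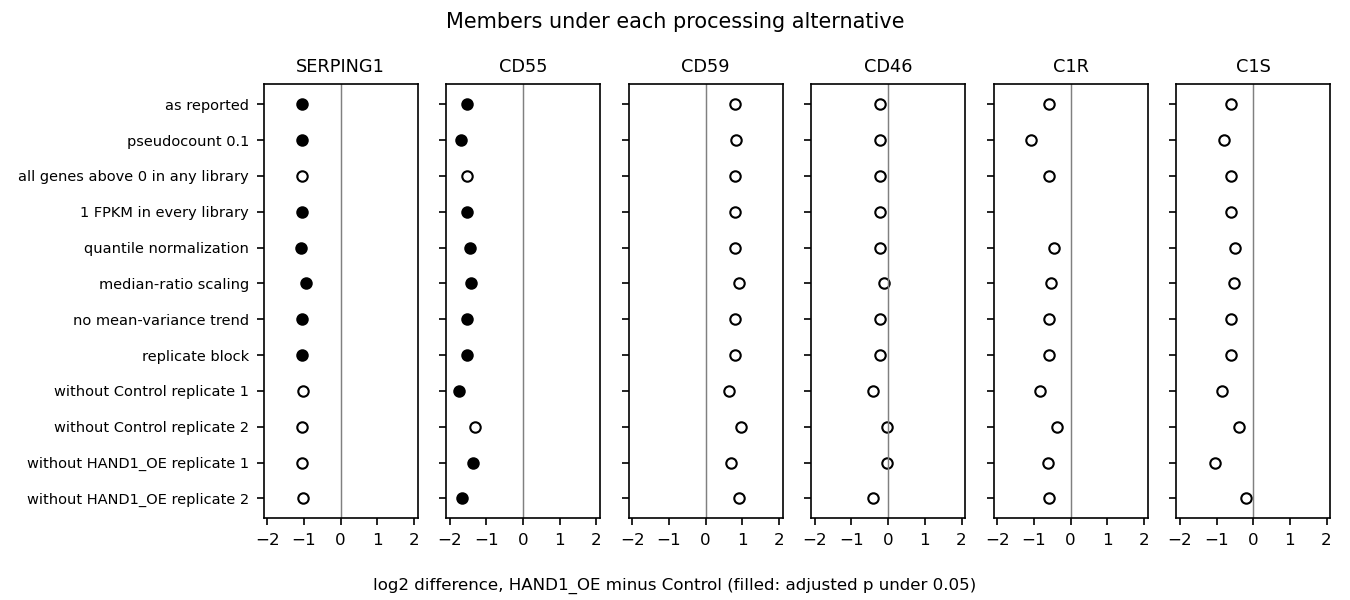
Log2 difference of the 6 tested members as reported and under each processing alternative (filled, adjusted p under 0.05; open, not). SERPING1 kept values near -1.04 and lost its call without each library, and CD59 stayed between 0.64 and 0.96 with open points throughout; C1R did not reach 1 FPKM in every library and has no point there.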

How the data were processed

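RNA from 2 Control and 2 HAND1_OE libraries was prepared with an Illumina TruSeq kit. The authors deposited 1 table of 58365 rows with an FPKM value per gene and library. The unit is not stated in the file and was taken from the study's plot of these values. Processing notes name BWA, Bowtie, RSEM and hg19, with no version or role, whereas 55583 of 55605 rows with a versioned GENCODE 29 ID have that release's GRCh38 coordinates, so GRCh38 is given here. After removal of 45 Y copies and 91 rows that shared a gene ID, 58229 remained.

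Read depth is unknown. The step of low values put the depth of the other libraries at 0.979, 1.18 and 1.03 times that of Control replicate 1, and 667 to 681 values per library lay above 0 but under 0.0001 FPKM, which whole reads do not give. No count test was therefore run and no counting interval is given.

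The 14622 genes that reached 1 FPKM in 2 or more libraries were tested two-sided on log2(FPKM + 1) in R 4.3.3 with limma 3.58.1, its mean-variance trend and Benjamini-Hochberg adjustment over all of them at a threshold of 0.05. The code was tested on simulated data. Ratios and sums within a library were compared with exact permutation tests. Members and lists were chosen with earlier results of these data known, so their counts are given beside those of all genes and have no test of their own. Named genes were HAND1, all members, the called genes of each other list (the 3 with the largest change where more than 3 were called, up to 10 for complement), and the 3 most abundant other complement genes. Some genes of these lists are not reported here by name. Any other gene is named after its values were seen, including those at or near 0 and PECAM1. Alternatives were a pseudocount of 0.1, other filters, quantile and median-ratio scaling, no trend, a replicate block, and leaving out each library.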

Additional observations from a re-analysis of the deposited data

How the results depend on the processing

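When the filter was dropped and 29860 genes with any value above 0 entered, limma's prior degrees of freedom fell from 3.61 to 1.32 and 0 genes were called higher and 0 lower (1458 and 2352 at an unadjusted p under 0.05). HAND1 (5.20) and SERPING1 (-1.04) then had an adjusted p = 0.153 and CD55 (-1.52) one of 0.186, so 0 members and 0 genes of each list were called, and the medians were -1.73 for pan-hematopoietic and -0.74 for monocyte-macrophage markers. In that fit CFI was at -0.057, CFB at -0.19 and C3 at -0.40, with limma adjusted p-values from 0.472 to 0.687. With 1 FPKM in every library 5 erythroid genes were called, and the medians were -1.48 for pan-hematopoietic and -1.46 for monocyte-macrophage markers, over fewer genes. A pseudocount of 0.1 gave medians of -2.56 for pan-hematopoietic and -4.55 for erythroid markers. The GPI anchor median was 0.035 with quantile normalization and 0.086 with median-ratio scaling, beside -0.0075 and 0.018 over all genes tested.

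With a replicate block 597 genes were called higher and 712 lower, with 8 of the other complement genes, 1 endothelial and 5 stromal markers. SERPING1 (adjusted p = 0.0110) and CD55 (0.0119) stayed called and CD59 did not pass (0.0605), so the block changed no member's call. Among the complement genes gained with the block were COLEC11 (limma adjusted p = 0.00810), FCN3 (0.0108) and THBD (0.0190). Deviations from the group means of same-numbered libraries had a correlation of 0.383, and with 2 pairs the numbers are not shown to pair the libraries.

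Leaving out each library in turn, which leaves an arm with 1 library assumed to vary like the other group, gave 134 to 266 genes higher and 137 to 309 lower, with 0 to 1 members called lower. SERPING1 ranged from -1.05 to -1.03 and CD55 from -1.74 to -1.31, and 2 to 5 other complement genes and 0 to 1 inducing factors were called. Medians ranged from -0.090 to 0.046 for the GPI anchor list, -0.14 to 0.28 for endothelial, -2.26 to -1.92 for pan-hematopoietic, -4.29 to -3.65 for erythroid and -0.40 to 1.30 for hepatic and endodermal markers. Endothelial and hepatic calls numbered 0 to 1. The hepatic median was -0.40 without HAND1_OE replicate 2 and the endothelial one -0.14 without Control replicate 2. HAND1, SERPING1 and CD55 kept their direction under each of these alternatives. Apart from the number of genes and libraries entered, the cause of these shifts was not tested.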

Other observations

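Some genes, named after their values were seen, were higher in replicate 2 than in replicate 1 of both groups. CLU, a soluble inhibitor of the membrane attack complex, was at 19.4 FPKM in Control replicate 1 and 21.7 FPKM in HAND1_OE replicate 1, and at 50.9 FPKM in Control replicate 2 and 66.0 FPKM in HAND1_OE replicate 2. C5, from which assembly of the membrane attack complex starts, was at 0.432 and 0.441 FPKM in the replicate 1 libraries and at 1.01 and 1.28 FPKM in the replicate 2 libraries. CD93, an endothelial membrane protein once studied as a C1q receptor, was at 56.0 and 58.8 FPKM in the replicate 1 libraries and at 88.9 and 92.9 FPKM in the replicate 2 libraries. AFP, a hepatic and yolk sac gene, was at 53.7 and 61.5 FPKM in the replicate 1 libraries and at 100 and 230 FPKM in the replicate 2 libraries. C5 reached 1 FPKM only in the replicate 2 libraries, so it passed the filter through the libraries with the higher values. In each of these genes both replicate 2 libraries were above both replicate 1 libraries, and 0 of the 4 were called between HAND1_OE and Control. The genes were picked for this order and the share of all genes with it was not counted. The order is therefore no evidence of a difference between the replicates.

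THBD, or thrombomodulin, an endothelial anticoagulant receptor that also helps to inactivate C3b, was at 17.6 and 25.3 FPKM in Control against 8.47 and 10.5 FPKM in HAND1_OE (log2 fold change -1.08, limma adjusted p = 0.0665). EMCN, an endothelial sialomucin, was at 22.8 and 34.2 FPKM in Control compared with 58.5 and 88.3 FPKM in HAND1_OE (log2 fold change 1.33, limma adjusted p = 0.0688).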
